A study of Mus musculus with 98 samples.

Results

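Mouse intestinal innate lymphoid cells (ILCs) regenerated from pluripotent stem cells, called R9-ILCs in the labels, were set beside wild-type ILCs (WT), one cell at a time. The members were the 35 R9 columns whose titles carry a second number, 1, and all 31 WT columns, 66 of the 98 columns of the series. WT columns with the same cell number were averaged into 1 cell, which left 23 WT cells and 58 cells in all. The 32 R9 columns without the second number were left out. The R9-ILCs, of strain C57BL/6, were sorted as CD45.2+ GFP+ Lin- CD127+ cells from the gut of Rag2-/-Il2rg-/- recipients, animals that lack T, B, NK and innate lymphoid cells of their own, 3 weeks after transplantation. The WT-ILCs were sorted as CD45.2+ Lin- CD127+ cells from the gut of C57BL/6 animals aged 8 weeks, with no GFP in the gate and no transplantation named. Host, donor cell source and age or time since transfer all differ between the groups and cannot be told apart. Whether library series differ too is not stated in the labels. The labels name no animals or stem cell clones, so each group counts as 1 sample: SDs are spreads over cells, no p-value is given, and "higher" or "lower" describes these cells.

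ILCs are lymphocytes without rearranged antigen receptors, and gut ILC3s, which respond to interleukin 23, guard the epithelium and help to build lymphoid tissue. All ILCs need the transcriptional regulator Id2 and most use the interleukin 7 receptor, whose α chain, CD127 (Il7r), was part of the sort. Runx1 and Hoxa9 are transcription factors of early blood formation, and their joint expression is known to push pluripotent stem cells toward blood lineages. The labels spell out neither R9 nor any transgene.

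Some WT libraries stood apart, which bears on every result. Levels are TPM, transcript abundance per length, scaled to the same total in every column, and give no depth. The 2 groups came in tables normalized separately. At 1 TPM or more, R9 cells had 1913 to 6042 genes (median 2429) and WT cells 793 to 7518 (median 2005). At 100 TPM or more, R9 cells had 781 to 2293 genes (median 1222), while WT cells had 87 to 1773 (median 694) and split at a gap. Of the 23 WT cells, 12 had 87 to 694 such genes and 11 had 1102 to 1773. In the 12, the 24 listed genes of enterocytes, the absorptive cells of the gut lining, summed to 20.5 to 193757 TPM (median 81696), and 27 listed ILC3 genes to 138 to 14105 TPM (median 1015). The 11 had 510.2 to 156663 TPM (median 1639) and 1254 to 33864 TPM (median 21425). The 35 R9 cells had 3.44 to 14176 TPM (median 695) and 693 to 36787 TPM (median 14126). Values are therefore given with all 23 WT cells and, where this matters, with the 11, a split made on gene number after seeing the data. WT columns of the same number had r of 0.844 to 0.995 over genes seen in both and shared 24% to 92.2% of their detected genes. One column of WT cell 16 was nearly the same as both columns of cell 32 (r of 0.964 and 0.967 over genes seen in both). Between 2 R9 cells r was at most 0.562. Among R9 cells, 4 stood apart, with 5787, 6042, 5310 and 4549 genes at 1 TPM or more, against at most 3276 in the other R9 cells. They had 17, 14, 12 and 15 of the enterocyte genes at 10 TPM or more, against at most 5 in the others, and in 3 of them the haemoglobin gene Hba-a1 was the top gene. In the first of the 4, Hba-a1 took 19.3% of TPM, and the ILC3 sum (693 TPM) was the lowest of all R9 cells. Without the 4 and the 2 WT cells over 4000 genes, the differences of Runx1, Hoxa9, Cd7, Arg1 and Fabp2 described next were 5.76, 6.06, -5.65, -6.01 and -6.68, and the enterocyte median was -1.43.

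**Figure D1:**
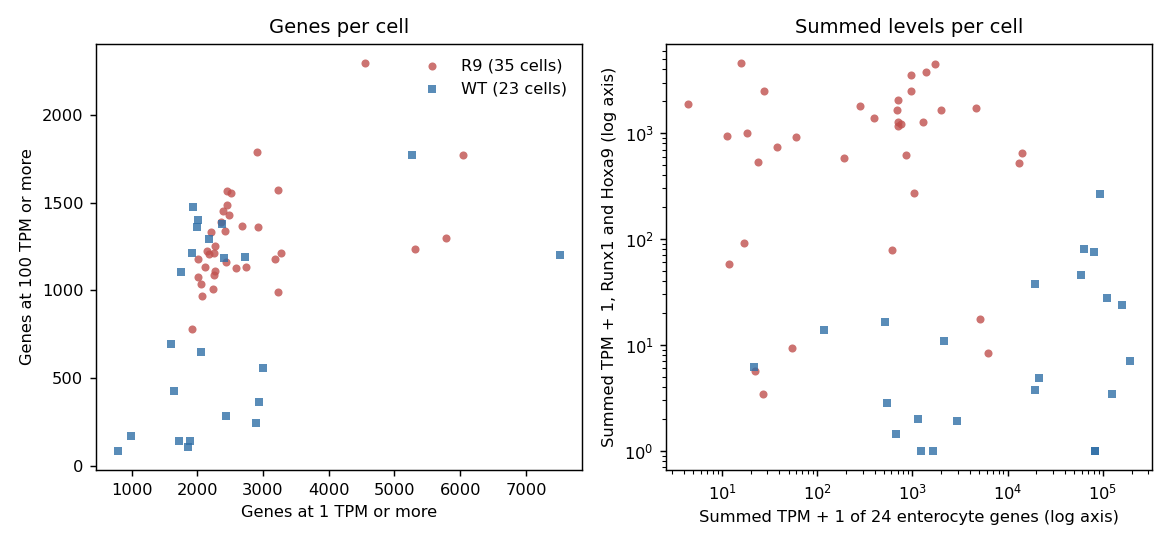
Left, genes at 1 TPM or more (x) and at 100 TPM or more (y) in each of 35 R9 cells (circles) and 23 WT cells (squares): 12 WT cells lie below 700 on the y axis and no R9 cell does. Right, on log axes, summed TPM + 1 of 24 enterocyte genes (x) and of Runx1 and Hoxa9 (y): R9 cells lie mostly toward the upper left and WT cells toward the lower right.

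Of 23420 gene symbols, 5317 were at 1 TPM or more in at least 20% of the cells of either group and were compared. A gene that passed in 1 group alone leans toward that group by this choice, so its sign is no independent result. The difference used throughout is the mean of log2(TPM + 1) over R9 cells minus that over WT cells, a scale that understates the difference of low genes. Signed values given after a gene without a unit are such differences. A gene counts as higher or lower where this difference is 2 or more in size. On this scale 528 genes (9.93%) were higher in R9 and 60 (1.13%) lower. In shares of cells at 10 TPM or more, 26 genes (0.489%) were seen at least 40 percentage points more often in R9 and 18 (0.339%) less often. No gene had values that did not overlap between the groups. The bulk of genes was shifted: 70.8% had a difference above 0 and the median was 0.59. With each column scaled to 144 genes common to both groups, the median was 0.07, and 220 genes were higher and 248 lower of 5416 compared. With the 11 WT cells alone, the median was -0.09, and 300 genes were higher and 393 lower of 5549 compared. List counts under either choice are to be read beside these counts and not beside 9.93% and 1.13%. Of the 528 higher genes, 238 were still higher against the 11 cells, and of the 60 lower genes, 49 were still lower. List medians are therefore given as they stand and relative to the median of all genes.

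**Figure D2:**
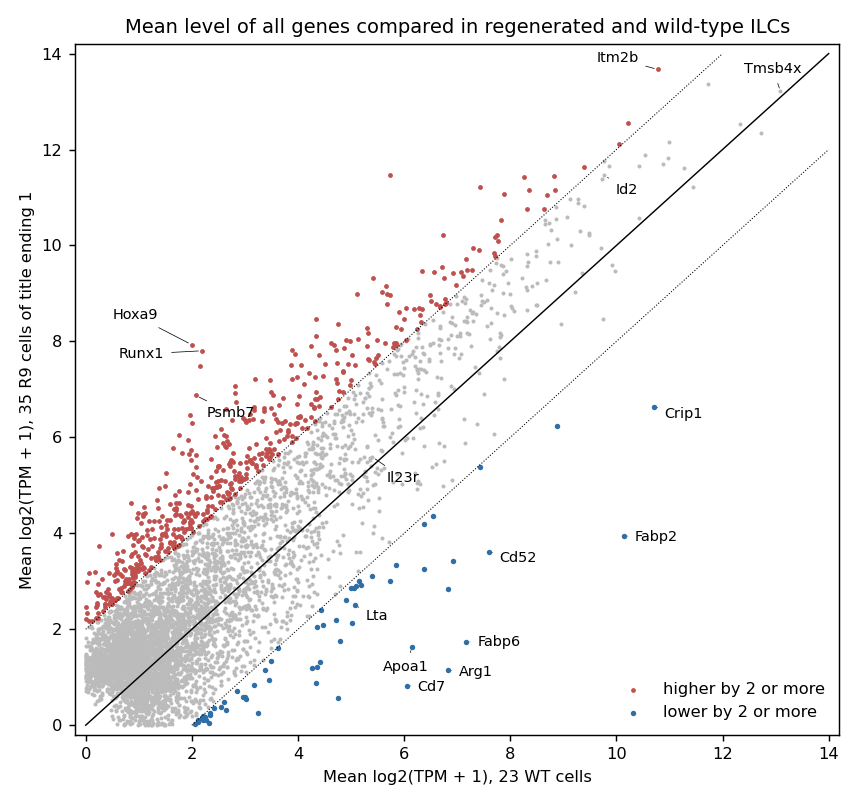
Mean log2(TPM + 1) of 5317 genes in 23 WT cells (x) and 35 R9 cells (y), with equality as a solid line and differences of 2 as dotted lines. Of the points, 70.8% lie above the solid line, Runx1, Hoxa9 and Psmb7 lie far above it, and Fabp2, Fabp6, Arg1 and Cd7 far below.

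Hoxa9 had the largest positive difference of all genes compared, and Runx1 came next after the predicted gene Gm9846 (5.73), which was singled out after its value was seen. Runx1 (mm10 chr16:92601466-92826149, strand -) was at 1.19 to 1612 TPM (median 421) in R9 cells and 0 to 89 TPM (median 2.1) in WT cells. The means on the log2 scale were 7.80 ± 2.73 against 2.19 ± 1.99 (SD over 35 and 23 cells), a difference of 5.61. It reached 10 TPM in 30 R9 cells (85.7%, interval 69.7 to 95.2%) and in 6 WT cells (26.1%, interval 10.2 to 48.4%), with exact Clopper-Pearson 95% intervals that cover counting error only. Runx1 reached 100 TPM in 27 R9 cells and 0 WT cells. In 5 R9 cells it stayed under 10 TPM, so the groups overlapped at the low end.

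Hoxa9 (chr6:52223100-52231089, strand -) was at 1.21 to 3044 TPM (median 549) in R9 cells and 0 to 175 TPM (median 1.26) in WT cells, with a difference of 5.94. At 10 TPM or more it was seen in 29 R9 cells (82.9%, interval 66.4 to 93.4%) and in 6 WT cells (26.1%, interval 10.2 to 48.4%). Both genes were at 10 TPM or more in 28 of 35 R9 cells, one of them alone in 3 and neither in 4. In WT cells both were seen in 3 of 23 and neither in 14. Against the 11 WT cells the differences were 6.47 and 6.91, and with common-gene scaling 4.40 and 4.92. Whether the reads come from the native genes or from introduced copies was not tested. Of 18 listed early blood regulators in the tables, 3 were compared, Hoxa9 among them. Fli1, an ETS factor of blood stem cells and vessels, was at 0 to 639 TPM (median 2.7) in R9 cells and 0 to 18.2 TPM (median 0) in WT cells, with a difference of 3.49 (3.77 against the 11). Meis1, the DNA-binding partner of HOXA9, was near the median of all genes at 0.56. Cbfb, the binding partner of RUNX proteins, was at 1.65, with 22.9% and 8.7% of cells at 10 TPM or more. Ets1 was at 0.48 (-1.22 against the 11 and -0.32 with common-gene scaling) and the repressor gene Etv3 at -1.30.

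Genes of the ILC label were seen in both groups, beside epithelial genes in some cells. All 35 R9 and all 23 WT cells had Id2 at 10 TPM or more, and all but 1 WT cell had Il7r. Id2 was at 104 to 14051 TPM (median 3883) in R9 cells and 24.5 to 6159 TPM (median 1392) in WT cells, a difference of 1.68 that was 0.38 against the 11 WT cells and -0.13 with common-gene scaling. Il7r was at 12.9 to 3327 TPM (median 1440.4) in R9 cells and 3.26 to 4869.9 TPM (median 289) in WT cells, with differences of 2.33, 1.44 and 0.53 in the same order. The common cytokine receptor chain gene Il2rg reached 10 TPM in every cell of both groups and was at 19 to 5969 TPM (median 1803) in R9 cells and 10.1 to 4211 TPM (median 714) in WT cells. Ptprc, which encodes the sorted CD45, was far lower in both groups, at 0.193 to 1419 TPM (median 1.34) in R9 cells and 0.147 to 359 TPM (median 2.24) in WT cells. In all 58 cells more ILC3 genes than ILC2 or ILC1 and NK genes reached 10 TPM, with 27, 20 and 20 genes listed. Medians of ILC3, epithelial and enterocyte genes at 10 TPM were 9, 1 and 1 in R9 cells and 12, 3 and 5 in WT cells. In some cells the order was turned: R9 cell 1 had 5, 17 and 17 such genes, and WT cell 29 had 5, 18 and 14. Of 14 core ILC genes in the tables, 13 were compared, 3 higher and 2 lower (against 9.93% and 1.13% of all genes), with a median of 1.11 (0.52 relative to all genes, and -0.20 with common-gene scaling, where its direction turned).

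Surface genes of that list, Cd7 and Cd52, went far the other way from Id2. Cd7, an immunoglobulin-family receptor of T, NK and innate lymphoid cells, was at 0 to 5.85 TPM (median 0) in R9 cells and 0 to 5117 TPM (median 30.6) in WT cells. At 10 TPM or more it was seen in 0 of 35 R9 cells, which allows a share of up to 8.57% by the rule of 3 counts and 10% by the upper exact limit, and in 16 WT cells (69.6%, interval 47.1 to 86.8%). The difference was -5.23, and -7.40 against the 11 WT cells, where Cd7 was at 1.33 to 5117 TPM (median 1312). Cd52, a small glycoprotein of the lymphocyte surface, was at 0 to 4059.6 TPM (median 8.5) in R9 cells and 0 to 3355 TPM (median 348) in WT cells, a difference of -3.97 that was -0.73 against the 10 WT columns of ending 1 and -4.17 against the 21 of ending 2. Ptprcap, which encodes a partner protein of CD45, was at 0 to 1079 TPM (median 5.15) in R9 cells and 0 to 3101 TPM (median 265) in WT cells, with a difference of -3.48. Each of the 3 genes was at 10 TPM or more in most WT cells and below it in most R9 cells, although single R9 cells reached 4059.6 TPM of Cd52 and 1079 TPM of Ptprcap. On the other side of the list stood Rora (3.10), a nuclear receptor of ILC development, Itgb7 (2.66), the gut-homing integrin chain, and Thy1 (1.93). Rora reached 100 TPM in 71.4% and 30.4% of R9 and WT cells and kept a difference of 2.46 against the 11 WT cells.

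**Figure D3:**
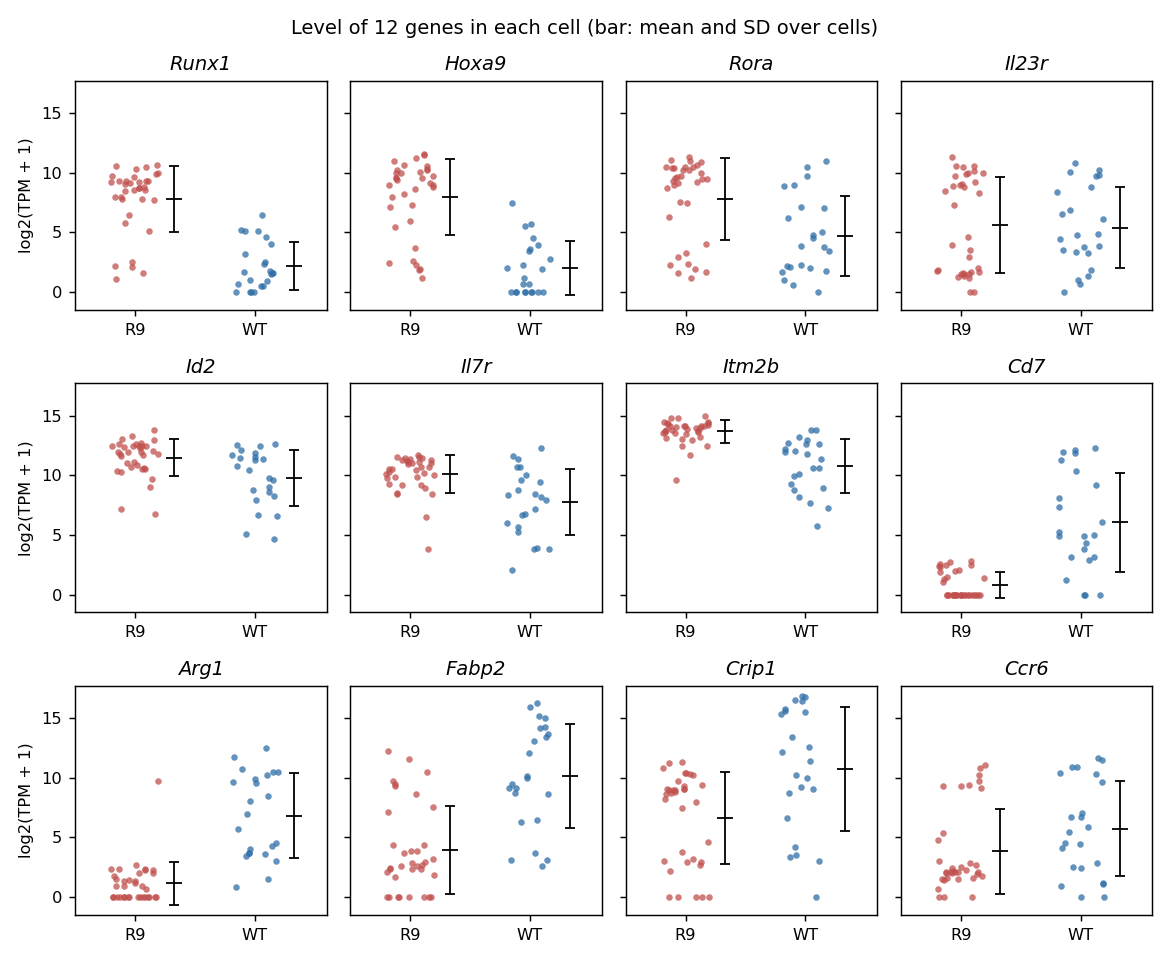
log2(TPM + 1) of 12 genes in each of 35 R9 and 23 WT cells, with the mean and SD over cells as bars. Runx1 and Hoxa9 are high in most R9 cells, Cd7 lies under 3 in every R9 cell, Id2 and Il7r overlap widely, and Rora, Il23r, Crip1 and Ccr6 form a high and a low band of cells within R9.

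ILC3 genes lay on both sides, and several were high in one fraction of cells and near 0 in the rest. Il23r, the interleukin 23 receptor chain, was at 0 to 2523 TPM (median 23.9) in R9 cells and 0 to 1809 TPM (median 26.8) in WT cells, a difference of 0.19 that was -1.43 against the 11 and -1.33 with common-gene scaling. Kit, the stem cell factor receptor, was at 0.303 to 1121 TPM (median 84.4) in R9 cells and 0 to 531 TPM (median 4.04) in WT cells (1.77). Of the 27 listed ILC3 genes, 23 were compared, 1 higher and 3 lower (9.93% and 1.13% over all genes). Against the 11 the count was 1 higher and 5 lower (300 and 393 of 5549 over all genes). The median over all WT cells was 0.07, or -0.52 relative to all genes. That relative median was below 0 under each of 14 alternatives, while the plain median was -1.36 against the 11 WT cells.

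The lymphotoxin genes, whose products drive lymphoid tissue formation, were split. Ltb was among the most abundant ILC3 genes in both groups, with 52.5 to 14146 TPM (median 5064) in R9 cells and 11.6 to 7523 TPM (median 1747) in WT cells and a difference of 1.99 (0.17 with common-gene scaling). Lta was at 0 to 1518 TPM (median 3.69) in R9 cells and 0 to 1944 TPM (median 32.8) in WT cells, a difference of -2.57, and reached 10 TPM in 17.1% and 60.9% of R9 and WT cells. Tnfsf11, which encodes RANKL and marks lymphoid tissue inducer cells, was at 0 to 1545 TPM (median 0.975) in R9 cells and 0 to 51.7 TPM (median 0) in WT cells and at a difference of 1.86, while Ccr6, the chemokine receptor of such cells, was at 0 to 2080.1 TPM (median 3.36) in R9 cells and 0 to 3218 TPM (median 43) in WT cells and -1.89. The Ccr6 difference was 0.02 against the WT columns of ending 1 and -2.35 against those of ending 2. In R9 cells Il23r and Ccr6 were both at 10 TPM or more in 6 of 35, and in WT cells in 12 of 23.

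Cd81, a tetraspanin, was at 0 to 2707 TPM (median 4.29) in R9 cells and 0 to 3711 TPM (median 90.5) in WT cells (-2.17, and -3.40 against the 11), and Gpr65, a proton-sensing receptor, reached 10 TPM in 2.86% and 26.1% of R9 and WT cells (-2.03). Tmem176a and Tmem176b, paired membrane protein genes, were at 10 TPM or more in every cell of both groups. Their differences of 0.07 and 1.42 turned to -1.96 and -0.37 against the 11 WT cells and to -1.74 and -0.37 with common-gene scaling. Ncoa7, Cited4, Ffar2 and Pram1 were within 1 of equality (0.19, 0.21, 0.18 and 0.80) over all WT cells. Against the 11 they were -1.36, -0.19, -1.93 and 0.28, and with common-gene scaling -1.60, -1.45, -0.21 and -0.17. The effector cytokine gene Il22 reached 10 TPM in 11.4% and 21.7% of R9 and WT cells. Over R9 cells, the SDs of Id2, Il7r and Ltb were 1.55, 1.59 and 1.67 on the log2 scale, and that of Il23r was 4.02, the largest of the ILC3 and core ILC genes compared.

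**Figure D4:**
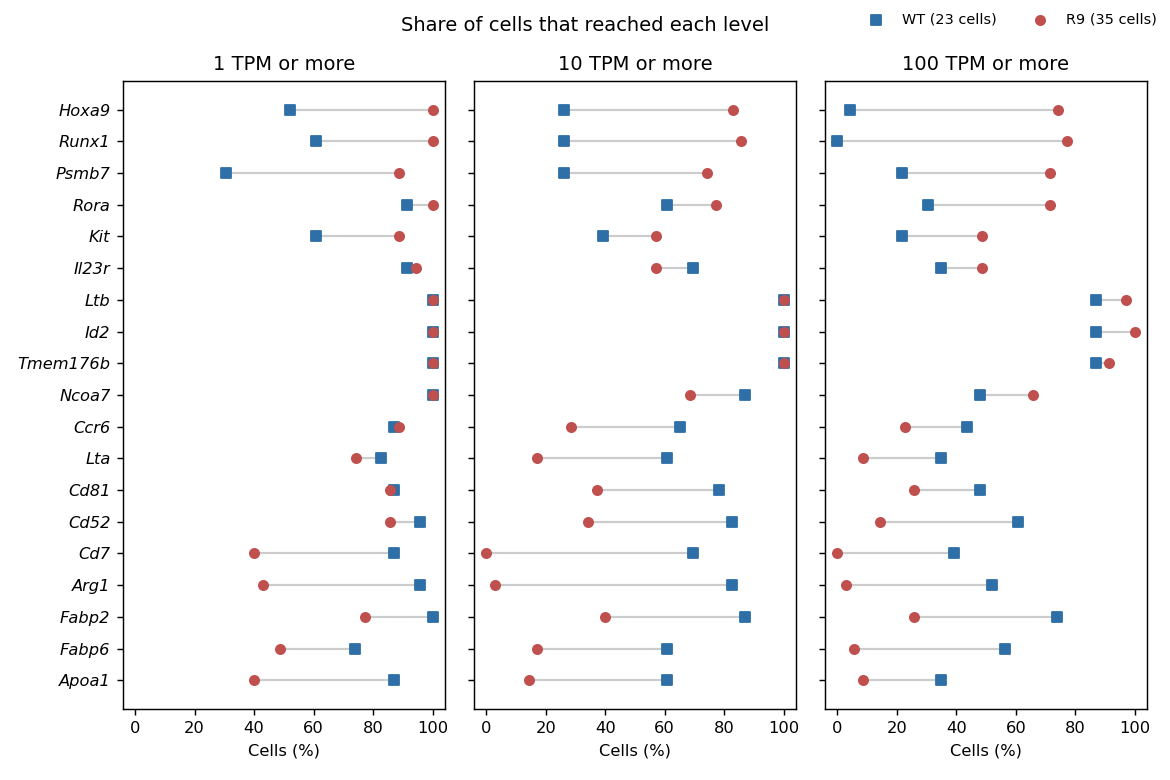
Share of 35 R9 cells (circles) and 23 WT cells (squares) at 1, 10 and 100 TPM or more for 19 genes. Ltb, Id2 and Tmem176b lie at 100% in both groups at 1 and 10 TPM, Hoxa9 and Runx1 are far apart at 10 and 100 TPM, and Cd7 and Arg1 are at 0 or 1 R9 cell from 10 TPM on.

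Most genes of ILC1 and NK cells were seen in few cells of either group. Of the 20 listed, 10 were at 0 in all R9 cells and 10 in all WT cells. Only 6 were compared, with a median of -1.12. Their median share of cells at 1 TPM or more was 14.3% in R9, under the 20% of the filter, and 28.3% in WT. Genes that entered through WT cells alone lean below 0 by that choice. The summed level of the 20 went the other way, at 4.33 to 2940 TPM (median 818) in R9 cells and 7.49 to 13658 TPM (median 313) in WT cells. A median of only 1 of the 20 genes reached 10 TPM in R9 cells and 2 in WT cells. Klrb1b alone had a median of 802 TPM in R9 cells, so the sum says little of the other genes. Ncr1, the activating receptor NKp46 of NK cells and some ILC3s, was listed at 0 in all 35 R9 cells and reached 1 TPM in 5 of 23 WT cells. It was thus compared through WT cells alone, and its sign was fixed by the filter. WT cells 16 and 32, which may be 1 cell counted 2 times, had 5 and 6 of the 20 genes at 10 TPM or more, the most of all WT cells. Il2rb and Cd160 reached 10 TPM in 2.86% of R9 cells each, against 26.1% and 21.7% of WT cells. Klrb1b, a lectin-like receptor, was the exception, at 3.85 to 2932 TPM (median 802) in R9 cells and 1.46 to 2861 TPM (median 136) in WT cells, with a difference of 1.32 that was -0.01 against the 11 and -0.47 with common-gene scaling. Of 20 ILC2 genes 5 were compared. Arg1, the arginine-degrading enzyme, was at 0 to 869 TPM (median 0.867) in R9 cells and 0.768 to 5586 TPM (median 120.3) in WT cells, a difference of -5.68 and -6.87 against the 11. It reached 10 TPM in 1 R9 cells (2.86%, interval 0.0723 to 14.9%) and in 19 WT cells (82.6%, interval 61.2 to 95%), and that single R9 cell held 95.1% of all Arg1 in R9. Gata3, a transcription factor of ILC2s and of all ILC development, reached 10 TPM in 22.9% and 4.35% of R9 and WT cells (1.37).

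Transcription factors of ILC precursors gave 0 higher and 0 lower of 14 compared (9.93% and 1.13% over all genes), with a median of 1.00 and a range of -0.32 to 1.68. The median was 0.41 relative to all genes. As it stands, it was 0.41 against the 11 WT cells and 0.13 with common-gene scaling. Tcf7, the Wnt and Notch pathway factor TCF-1, was lowest (-0.32, at 0 to 2868 TPM (median 3.17) in R9 cells and 0 to 823 TPM (median 18.2) in WT cells), while Ikzf3 (1.26), Tcf3 (1.19), Maf (1.12), Nfil3 (1.11) and Tox (0.71) lay above 0. Tox was at -0.40 against the 11 and -0.02 with common-gene scaling. With that scaling Tcf7 was at -1.98, Maf at 0.21, Nfil3 at 0.60, Ikzf3 at 0.98 and Tcf3 at 1.11. Only 5 T cell genes were compared. Lat, an adaptor of receptor signalling, was at 0 to 2941 TPM (median 137) in R9 cells and 0 to 776 TPM (median 0) in WT cells (3.62, and 3.07 against the 11), and Cd3g, which encodes the CD3γ subunit and is also transcribed by some innate lymphocytes, at 0 to 6165 TPM (median 3.55) in R9 cells and 0 to 117 TPM (median 0) in WT cells (2.17). Cd4 reached 10 TPM in 0 R9 cells and 2 WT cells. Markers of mast cells, neutrophils and stroma gave 0 compared genes. Of 3 macrophage genes, C1qb was listed at 0 in all R9 cells. Hba-a1 was at 0 to 193471 TPM (median 0) in R9 cells and 0 to 176 TPM (median 0) in WT cells, with its highest value in 1 of the 4 R9 cells that stood apart and a difference of 2.20 that was 1.35 without cells over 4000 genes. Since Hba-a1 and Hba-a2 are near-identical copies their split is uncertain.

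Enterocyte genes had the lowest median of the lists with 5 or more compared genes. Of 24 listed genes 12 were compared, 0 higher and 6 lower (9.93% and 1.13% over all genes), and all 12 lay below 0 (29.2% over all genes). The median was -1.77 (-2.56 against the 11 WT cells, and below that of all genes under each of 14 alternatives). Fabp2, whose product carries fatty acids in enterocytes, was at 0 to 4892 TPM (median 5.35) in R9 cells and 5.08 to 76817 TPM (median 999.9) in WT cells, the most negative difference of all genes compared at -6.20. It was at 5.08 to 33160.0 TPM (median 546) in the 11 WT cells and at 7.4 to 76817 TPM (median 10844) in the 12. Fabp6, the ileal bile acid-binding protein gene, was at 0 to 2325 TPM (median 0) in R9 cells and 0 to 146283 TPM (median 170.4) in WT cells (-5.44). Apoa1, the apolipoprotein of high-density lipoprotein, was at -4.52, Fabp1 at -3.98, the retinol-binding protein gene Rbp2 at -2.20 and Apoc3 at -2.07.

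The 24 genes summed to 1000 TPM or more in 28.6% of R9 cells (10 cells). In WT cells the share was 78.3% (18 cells, 8 of the 11 and 10 of the 12). Of 15 other epithelial genes compared, 0 higher and 3 lower (9.93% and 1.13% over all genes), with a median of -0.61. The keratin genes Krt19 (-2.53, and -1.55 against the 11) and Krt8 (-2.14) were lower in R9, and Lgals4 (-2.29) changed sign against the WT columns of ending 1 (0.11). Enterocytes are epithelial cells, outside the definition of a CD45.2+ CD127+ gate. Their part in the other differences was not tested. Further genes known from the gut lining were low in R9, namely the small proline-rich protein gene Sprr2a1 (-4.18), one of a family of similar copies, and Calml4 (-3.16). Crip1, a LIM-domain protein gene of both lymphocytes and enterocytes, was at 0 to 2621 TPM (median 431) in R9 cells and 0 to 115475 TPM (median 2663) in WT cells (-4.07). It was at 0 to 115475 TPM (median 47839) in the 12 WT cells and at 7.25 to 41536 TPM (median 539.9) in the 11, where the difference was -1.78.

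Promoters of the groups at both ends are shown to set gene classes side by side. RefSeq promoters (GRCm38.p6, the build of mm10) were matched by symbol for 16375 of 23420 genes. Each was searched on both strands from 250 bases before the start to 50 bases after it. The HNF1-type motif GTTAAT, named after a factor of gut and liver genes, was found in 5 of 20 enterocyte promoters (25%) and in 6.24% of all promoters. TATAAA was found in 8 of the 20 (40%), in 6 of 15 class I pathway promoters (40%) and in 12.9% of all. The ETS-type motif CCGGAAG was found in 0 of the 20, in 22 of 55 ribosomal protein promoters (40%), in 10 of 31 proteasome promoters (32.3%) and in 11.8% of all. The RUNX motif TGTGGT was found in 2 of 11 promoters (18.2%) of the 15 genes that the naming rule took as most higher, in 2 of 9 (22.2%) of the 15 taken as most lower, in 5 of the 20 enterocyte promoters (25%) and in 14.5% of all. A match is a description of these letters. The windows below show only the 150 bases before the start, given 5′ to 3′ on the strand of the gene. Capitals mark CCGGAAG in Rpl15 and Rpl19, GTTAAT and TATAAA in Fabp1, and TATAAA in Fabp6, each as found on either strand.
Rpl15 (chr14:18270987-18271136, strand -): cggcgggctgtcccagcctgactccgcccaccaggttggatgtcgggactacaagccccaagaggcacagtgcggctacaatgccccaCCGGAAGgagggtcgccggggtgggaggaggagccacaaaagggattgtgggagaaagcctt
Rpl19 (chr11:98026560-98026709, strand +): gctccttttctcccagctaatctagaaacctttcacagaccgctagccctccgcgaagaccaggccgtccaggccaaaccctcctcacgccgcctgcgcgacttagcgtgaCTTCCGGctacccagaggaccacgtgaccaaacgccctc
Fabp1 (chr6:71199729-71199878, strand +): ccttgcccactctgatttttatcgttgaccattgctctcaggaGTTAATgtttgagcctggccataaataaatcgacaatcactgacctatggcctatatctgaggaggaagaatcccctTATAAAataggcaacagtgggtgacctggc
Fabp6 (chr11:43601563-43601712, strand -): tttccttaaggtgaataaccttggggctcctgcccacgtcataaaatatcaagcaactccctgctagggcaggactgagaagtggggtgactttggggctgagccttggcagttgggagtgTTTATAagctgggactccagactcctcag

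Ribosomal protein genes had a median above 0 over all WT cells and at about 0 over the 11. All 75 listed were compared, 29 higher and 0 lower (9.93% and 1.13% over all genes), with a median of 1.76 that was -0.09 against the 11 WT cells, where 5 were higher and 2 lower. Rps28 was at 0 to 2569 TPM (median 567) in R9 cells and 0 to 2202 TPM (median 0) in WT cells (4.14, and 0.32), Rpl19 at 0 to 3565 TPM (median 1039.5) in R9 cells and 0 to 2024 TPM (median 48.8) in WT cells (3.90, and 1.82), and Rpl15 at 0.535 to 824 TPM (median 197) in R9 cells and 0 to 4572 TPM (median 0.944) in WT cells (4.03, and 2.65). Their TPM summed to a median of 44715 in R9 cells and 41888 in WT cells, so the total differed less than the genes per cell: a median of 59 members reached 10 TPM in R9 and 46 in WT. Ribosomal protein genes have many processed copies in the genome, and values for single genes are uncertain for that reason. The median of all genes moved in the same way, from 0.59 to -0.09, so such a move was not particular to ribosomal protein genes. Medians of several other lists also moved to about 0 or below, such as heat shock genes (0.28 to -0.88) and apoptosis genes (0.58 to -0.46). The counts of 4 further lists are given here. Over all genes, 9.93% were higher and 1.13% lower with all WT cells, and 300 and 393 of 5549 against the 11. Subunits of oxidative phosphorylation gave 11 higher and 0 lower of 75 (median 1.28), and 5 higher and 10 lower against the 11 (median -0.43). Proteasome subunits gave 5 higher and 0 lower of 37 (1.12), and 4 higher and 4 lower against the 11 (-0.47). Splicing factors gave 7 higher and 0 lower of 35 (1.23), and 1 higher and 1 lower against the 11 (-0.00). Translation factors gave 4 higher and 0 lower of 30 (1.10), and 1 higher and 0 lower against the 11 (0.07).

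Some single members of these machines differed by 2 or more with either set of WT cells. The proteasome subunit genes Psmb7 and Psmb4 were at 4.79 and 3.93, and at 4.02 and 2.73 against the 11 WT cells. Psmb7 was at 0 to 1430.3 TPM (median 277) in R9 cells and 0 to 1087 TPM (median 0) in WT cells. Ndufs4, a complex I subunit, was at 3.56 (2.81), and the mitochondrial genes Cmc2 and Romo1 at 4.25 (3.84) and 3.40 (2.58). Snrpe and Snrpg, core proteins of spliceosomal particles, were at 4.12 and 2.98 but at 1.77 and -0.41 against the 11. Aminoacyl-tRNA synthetase genes, which charge transfer RNAs, had a median of 1.27 over all WT cells and 0.87 against the 11. Of 16 compared, 3 were higher and 0 lower over all WT cells (9.93% and 1.13% over all genes). Against the 11 the count was 4 higher and 0 lower (300 and 393 of 5549 over all genes). Dars was at 3.13 and Nars at 2.93.

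Glycolysis genes had a median above that of all genes, with Ldhb far below it. Of 14 compared, 4 higher and 1 lower (9.93% and 1.13% over all genes), with a median of 1.65. Against the 11 WT cells the median was 0.62, with 3 higher and 1 lower (300 and 393 of 5549 over all genes). The pyruvate kinase gene Pkm was at 4.6 to 3189 TPM (median 652) in R9 cells and 0 to 1128 TPM (median 67.8) in WT cells (3.24), the triose phosphate isomerase gene Tpi1 at 2.80 and Gapdh at 0 to 239.8 TPM (median 56.5) in R9 cells and 0 to 568 TPM (median 16.3) in WT cells (2.29), although the Gapdh difference was -0.091 as a ratio of mean TPM. A listed 0 can be a failed estimate, since Gapdh, a gene of all cells, had one in 9 WT cells and 1 R9 cell. Ldhb, the lactate dehydrogenase B chain, was at 0 to 1472 TPM (median 0) in R9 cells and 0 to 3559 TPM (median 4.47) in WT cells (-3.45), and the A chain Ldha at 0.85 (-0.76 against the 11 and -0.87 with common-gene scaling). A single R9 cell held 97.8% of all Ldhb in R9. The antioxidant gene Sod1 was at 3.78, and the glutathione transferase gene Gstm1 and the sugar epimerase gene Galm at -3.11 and -3.08.

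Antigen presentation genes split by class. Of 16 class I pathway genes compared, 6 higher and 0 lower (9.93% and 1.13% over all genes), 14 above 0 (70.8% over all genes), with a median of 1.62. Against the 11 WT cells the count was 2 higher and 0 lower (300 and 393 of 5549 over all genes) and the median 0.86. With common-gene scaling the count was 1 higher and 0 lower (220 and 248 of 5416 over all genes). H2-T23, which encodes the ligand Qa-1, was at 7.65 to 3195 TPM (median 892) in R9 cells and 0 to 2621 TPM (median 46.5) in WT cells (3.11, and 1.39 against the 11), the peptide loading factor Tapbp at 2.73, the peptide transporter gene Tap2 at 2.00 and H2-D1 at 2.33 (0.92 against the 11). B2m, the shared light chain, was at 2144 to 34398 TPM (median 11158) in R9 cells and 101 to 26393 TPM (median 4915) in WT cells, a difference of 1.63 that was -0.38 against the 11 and -0.18 with common-gene scaling. H2 genes are similar copies and their split is uncertain. All 5 class II pathway genes compared lay below 0 (29.2% over all genes), with a median of -1.33 (-2.56 against the 11): Cd74, the invariant chain, was at 0 to 4746 TPM (median 3.35) in R9 cells and 0 to 3066 TPM (median 29.3) in WT cells (-1.90), H2-Oa at -1.43, H2-Ab1 at -1.33 and the protease gene Ctss at -1.30. None of the 5 reached -2 over all WT cells (1.13% over all genes), and against the 11 WT cells 4 did (393 of 5549 over all genes). The summed class II level was 0.541 to 6069 TPM (median 20.6) in R9 cells and 4.28 to 6432 TPM (median 481) in WT cells.

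Interferon-related genes went both ways. Of 13 compared, 3 higher and 0 lower (9.93% and 1.13% over all genes), and 3 higher and 3 lower against the 11 WT cells (300 and 393 of 5549 over all genes). The higher ones over all WT cells were Irf7 (2.39) and Irf9 (2.34), transcription factors of the interferon response, and the nucleic acid sensor gene Zbp1, which was listed at 0 in all 23 WT cells and reached 10 TPM in 9 of 35 R9 cells. Zbp1 was thus compared through R9 cells alone, and its sign was fixed by the filter. Irf9 was at up to 8.46 TPM in the 11 WT cells and at 0 in the 12. Gbp2 (-1.68, and -2.20 against the 11) and Bst2 (-1.27, and -2.96) lay below 0. In NF-κB signalling, 2 higher and 0 lower of 12 were counted (9.93% and 1.13% over all genes), with Birc3, a ubiquitin ligase of the tumour necrosis factor receptor, at 2.99 and Nfkb2 at 2.19, while the inhibitor gene Nfkbia was near the median of all genes (0.67, and -0.62 against the 11 and -1.14 with common-gene scaling). Myd88, the adaptor of interleukin 1 and Toll-like receptors, was at 0 to 1583 TPM (median 2.31) in R9 cells and 0 to 21.2 TPM (median 0) in WT cells (3.32, and 3.59 against the 11), beside Il1r1 at -0.44 and Il18r1 at -0.77.

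Among cytokine receptor genes, 1 higher and 0 lower of 17 were counted (9.93% and 1.13% over all genes), Il7r being the higher one. The count was 0 higher and 1 lower against the 11 WT cells and 0 higher and 4 lower with common-gene scaling. Over all genes these counts were 300 and 393 of 5549 against the 11, and 220 and 248 of 5416 with scaling. Cish, an inhibitor of STAT5 signalling that interleukin 7 induces, was at 0 to 408 TPM (median 1.2) in R9 cells and 0 to 188 TPM (median 7.26) in WT cells (-1.91). Of 13 homing genes, 2 higher and 0 lower (9.93% and 1.13% over all genes), Itgb7 and the tissue retention gene Cd69 (2.08). Against the 11 the count of homing genes was 1 higher and 2 lower (300 and 393 of 5549 over all genes). Cxcr6, a chemokine receptor of tissue ILCs, was at 8.37 to 8928 TPM (median 903) in R9 cells and 8.83 to 4879.6 TPM (median 595) in WT cells, a difference of 0.28 that was -1.31 against the 11 and -1.54 with common-gene scaling. No AP-1 or immediate early gene of 14 compared was higher or lower by 2 (9.93% and 1.13% over all genes). Fos (-1.78) and Jun (-1.63), genes that cell isolation is known to induce, lay below 0 and Btg1 (1.91) and Jund (1.64) above it, while with common-gene scaling the values were -3.34, -3.11, 0.14 and 0.14. Fos was at 0 to 16.2 TPM (median 2.57) in R9 cells and 0 to 502 TPM (median 12.4) in WT cells, and against the 11 WT cells its difference was -0.42. Cell cycle genes were few, with 14 of 34 compared. Pcna, the DNA polymerase clamp, was at 2.83 and the cyclin gene Ccnd2 at -0.78.

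**Figure D5:**
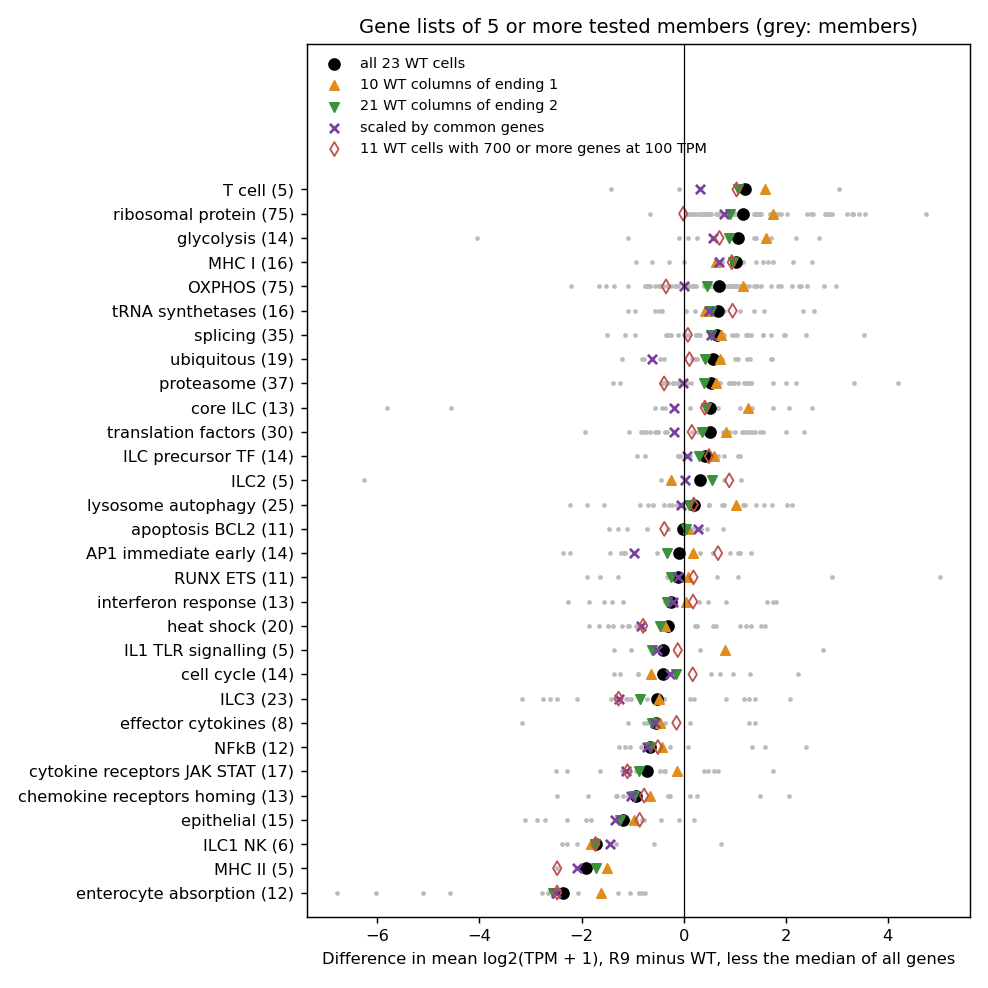
Median difference of each gene list with 5 or more compared genes, less the median of all genes, on the log2 scale (x), with members as grey points and the number compared in brackets. Filled circles use all 23 WT cells, triangles the WT columns of each title ending, crosses common-gene scaling and open diamonds the 11 WT cells with 700 or more genes at 100 TPM. Enterocyte, class II and ILC1/NK lists lie left of 0 under all 5, and ribosomal, OXPHOS and proteasome lists lie right of 0 with circles and at or left of it with diamonds.

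The other genes with the largest differences had varied roles. Chst12, a sulfotransferase of chondroitin, was at 4.50, Apoa1bp, an enzyme of NAD(P)H repair, at 4.30, the small GTPase gene Arf5 at 4.29, the clathrin adaptor gene Ap2s1 at 4.13, the chromatin protein gene Vps72 at 4.01 and the dynactin gene Dctn3 at 3.87. Against the 11 WT cells these were 4.53, 4.93, 3.53, 3.35, 2.79 and 3.28. Oaz1-ps (3.78) is a pseudogene whose reads may come from Oaz1. Among genes seen more often in R9, the myosin gene Myh9 reached 10 TPM in 60% and 8.7% of R9 and WT cells, the condensin gene Smc4 in 68.6% and 21.7% and Gpsm3 in 71.4% and 26.1%. Among those seen less often, the uridine phosphorylase gene Upp1 was at 20% and 73.9% and Ramp1, a chain of the receptor for the neuropeptide CGRP, at 22.9% and 73.9%.

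A small set of genes was seen in most cells of both groups. Of the 5317 compared, 133 were at 10 TPM or more in at least 80% of the cells of both groups, leaving out ribosomal protein and predicted genes. In every cell of both, 93 genes reached 1 TPM. The 8 genes named next were taken from the 12 smallest differences among common genes, so their closeness was fixed by that choice. Tmsb4x, an actin-binding peptide gene, was at 2753 to 21826 TPM (median 10791) in R9 cells and at up to 63274 TPM (median 12099.9) in WT cells, and Ubb, a ubiquitin gene, at 1665 to 11476 TPM (median 6374) in R9 cells and 714 to 33156 TPM (median 5523) in WT cells, with differences of 0.12 and 0.20. Malat1 (-0.19), Fth1 (-0.23), Calm2 (0.23), Sepp1 (0.13), Edf1 (0.05) and Cox8a (0.10) also differed by less than 0.25, and with common-gene scaling each of these 8 lay between -2.01 and -1.42. Itm2b, which encodes a membrane protein, had the highest mean TPM in R9 and was at 794 to 31656 TPM (median 14938) in R9 cells and 53.6 to 14052 TPM (median 2586) in WT cells, a difference of 2.89 and 1.47 against the 11 WT cells. Over the 5317 genes, the median r between 2 cells was 0.329 within R9, 0.310 within WT and 0.298 between an R9 and a WT cell. These values describe cells whose gene numbers differ and whose library series are not stated.

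Several of these differences were not shared by the 32 R9 columns left out, which carry no second number. Mean log2(TPM + 1) of Runx1 was 3.53 there, against 7.80 in the 35 R9 cells and 2.19 in WT cells. Hoxa9 was at 3.21, against 7.93 and 1.99. Cd7 was at 6.01, near the WT mean of 6.05 and not near the 0.82 of the 35 cells, and Ptprcap at 6.72, against 3.43 and 6.92. Lta was at 7.99, above both the 35 R9 cells (2.50) and WT (5.07). Fabp2 was at 3.16, closer to the 35 R9 cells (3.95) than to WT (10.15), and Arg1 at 3.45 lay between 1.15 and 6.83. The labels give both R9 sets the same strain, host, time and gate. The difference between them was not tested, and what the second number stands for is not stated.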

How the data were processed

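PolyA RNA of single sorted cells was amplified (Discover-sc WTA Kit V2), and sequencing libraries were built (TruePrep DNA Library Prep Kit V2), as the labels' protocols state. The authors deposited TPM per gene symbol in 1 table for each group, each column summing to 1e+06, so a level set across the 2 tables rests on that scaling, and the depth per cell is unknown. The submitters' processing notes list bcl2fastq, HISAT2 2.1.0, SAMtools 0.1.19, StringTie 1.3.4 and mm10, without their roles.

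From the deposited TPM, WT columns of 1 cell number were averaged, and means of log2(TPM + 1) and shares of cells at 1, 10 and 100 TPM were computed (pandas 2.3.3, numpy 2.4.6 and scipy 1.17.1 under Python 3.11.15, with plots from matplotlib 3.10.9), with exact 95% intervals for shares. Genes under 1 TPM in over 80% of the cells of each group were left out of the comparison. No doublet caller was run and no clusters were made, and 1 alternative dropped cells with over 4000 genes. Named genes were the 15 largest differences each way, the 10 largest differences in share each way, the 12 smallest differences among common genes, all compared members of the ILC lists, up to 8 of each other list and the 3 most abundant genes per group. The cells, the 40 lists and these rules were chosen with earlier results of these data known. Coordinates are from GENCODE vM21, matched by symbol. Some genes the rules select are not reported here. Genes of the mitochondrial genome gave 0 values under the names searched.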

Additional observations from a re-analysis of the deposited data

Results flagged for a closer look

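The 32 R9 columns outside the comparison held mast cell genes that were rare in the compared cells. Tpsb2, a mast cell tryptase gene, reached 100 TPM in 90.6% of them (29 of 32) and was listed at 0 in all 35 R9 and 23 WT cells of the comparison. Cpa3, a mast cell carboxypeptidase gene, reached 100 TPM in 81.2% of them, while 3 R9 cells of the comparison reached 1 TPM, the highest of them 616 TPM, and 0 WT cells did. Cma1, a chymase gene, reached 100 TPM in 71.9%, with 1 WT cell at 3.91 TPM as the only one above 1 TPM. The lymphoid progenitor gene Ly6d reached 100 TPM in 71.9% and was listed at 0 in all 58 compared cells.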

How the results depend on the processing

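Over 23 values for the 4 counts of genes that moved by more than 1.5 times, 6 single genes past the limit of 2 that changed sign, and 14 alternatives for list medians, the main limits were these, and the cause of each was not tested. In all, 80 of 251 named genes changed sign under at least 1 of the 14. The 528 higher genes became 1220 with a pseudocount of 0.1 TPM, 126 with 10 TPM, 1346 as ratios of mean TPM, 220 with common-gene scaling, 1067 against WT columns of ending 1 and 300 against WT cells with 700 or more genes at 100 TPM. The 60 lower genes became 175, 15, 393 and 248 under the first 4 of these, 103 in cells with 1500 to 4000 genes and 393 against those WT cells. The 26 genes seen more often became 16 (common-gene scaling), 180 (ending 1), 124 (at 1 TPM), 68 (at 100 TPM) and 1 (among the 500 highest genes of a cell), and the 18 seen less often became 56 (scaling), 11 (ending 1), 31 (1500 to 4000 genes), 4 (at 100 TPM), 72 (WT cells with 700 or more genes at 100 TPM) and 31 (without WT cells averaged from more than 1 column). The last 2 alternatives were chosen after seeing the data. Lgals4 changed sign against WT columns of ending 1 (0.11), Rpl15 and Gapdh as ratios of mean TPM (-0.21 and -0.091), and Rpl13, Snrpg and Snrpf against WT cells with 700 or more genes at 100 TPM (-0.11, -0.41 and -0.035). Relative to all genes, the Runx1 and Hoxa9, enterocyte, class I, class II, ILC1/NK and ILC3 lists kept 1 sign under all 14 alternatives. For the ILC1/NK list this sign leans on the filter, since the median share at 1 TPM was 14.3% in R9 cells and 28.3% in WT cells. No paired analysis was possible because the results come from no test and cell numbers in the titles name no shared animal. TPM keeps no depth, so a gene listed at 0 is not shown to be absent.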
